A study of Drosophila melanogaster with 2 samples.

Results

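The 295 genes described here are the transfer RNA (tRNA) genes on the nuclear chromosome arms of Drosophila melanogaster. They are all the genes whose symbol begins with tRNA: in the Ensembl annotation (from FlyBase) of the dm6 genome, out of 18164 annotated genes. Of these, 290 are annotated as tRNA genes and 5 as pseudogenes, and all 295 have the same symbol and coordinates in RefSeq. They cover 22 isotypes, meaning the amino acid (or the initiator function) that the tRNA serves, and 44 anticodons. The mature sequence of 252 genes is also carried by at least 1 other gene. The largest set of identical genes has 13 members.

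The study mapped the chromatin binding of CG10654 by chromatin immunoprecipitation and sequencing (ChIP-seq). The line expressed CG10654 fused to green fluorescent protein (GFP), and chromatin was recovered with an antibody to GFP from whole embryos aged 0 to 24 h and of both sexes. There was 1 group of 2 biological replicates, with no second condition, and each replicate averages over every tissue and stage of those 24 h. The deposited files are peak lists, and the control library was not analysed here.

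Transfer RNAs carry amino acids to the ribosome, and their genes are transcribed by RNA polymerase III. Unlike most promoters, theirs lie inside the transcribed sequence: an A box near the 5′ end and a B box near the 3′ end are bound by the factor TFIIIC, which then places TFIIIB just upstream of the gene. The genes are short, are often found in clusters, and many sit close to, or within introns of, protein-coding genes.

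Several of the tRNA genes that had a strong CG10654-GFP peak nearby are shown first, from the RefSeq Release 6 genome (dm6) and on the strand of the gene. Capitals mark the A box and, after it, the B box. The aspartate gene tRNA:Asp-GTC-1-5 lies at 2L:8541761-8541832, and tRNA:Asp-GTC-1-4 beside it has the identical sequence. The leucine gene tRNA:Leu-TAA-2-1 lies at 3R:24112964-24113047, the glutamine gene tRNA:Gln-TTG-2-1 at X:3427452-3427523 and the valine gene tRNA:Val-CAC-2-5 at 3R:19672277-19672349.
tRNA:Asp-GTC-1-5: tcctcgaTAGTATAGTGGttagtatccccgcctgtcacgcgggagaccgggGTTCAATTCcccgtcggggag
tRNA:Leu-TAA-2-1: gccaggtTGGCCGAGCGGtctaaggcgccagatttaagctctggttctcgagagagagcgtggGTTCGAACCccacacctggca
tRNA:Gln-TTG-2-1: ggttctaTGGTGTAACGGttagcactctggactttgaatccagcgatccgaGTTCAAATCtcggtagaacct
tRNA:Val-CAC-2-5: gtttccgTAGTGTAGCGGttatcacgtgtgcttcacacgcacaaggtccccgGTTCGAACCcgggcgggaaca

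The strongest peaks did not have their summits on these sequences but beside them. The bases within 50 bp of 5 of these summits are given next, again on the strand of the tRNA gene. Capitals mark the bases that belong to a tRNA gene: the aspartate window (2L:8541805-8541905) holds the last 28 bases of tRNA:Asp-GTC-1-5, and the others hold none. The windows beside the tyrosine gene (3R:8669340-8669440), the threonine gene (3R:16431784-16431884), the leucine gene (3R:24112726-24112826) and the glutamine gene (X:3427750-3427850) lie upstream of those genes.
summit near tRNA:Asp-GTC-1-5: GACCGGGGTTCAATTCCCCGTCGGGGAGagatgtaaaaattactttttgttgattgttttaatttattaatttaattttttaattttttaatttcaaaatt
summit near tRNA:Tyr-GTA-1-8: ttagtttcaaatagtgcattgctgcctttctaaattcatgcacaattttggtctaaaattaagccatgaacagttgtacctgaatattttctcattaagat
summit near tRNA:Thr-AGT-1-4: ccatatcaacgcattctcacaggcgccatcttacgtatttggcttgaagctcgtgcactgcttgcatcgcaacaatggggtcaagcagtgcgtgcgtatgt
summit near tRNA:Leu-TAA-2-1: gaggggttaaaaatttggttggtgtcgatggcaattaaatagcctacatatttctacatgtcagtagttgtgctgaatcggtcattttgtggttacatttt
summit near tRNA:Gln-TTG-2-1: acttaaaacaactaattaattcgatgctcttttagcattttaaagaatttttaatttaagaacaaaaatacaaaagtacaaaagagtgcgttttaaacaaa

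These windows differed in base composition. The glutamine window has 21.8% G and C, the threonine window 51.5%. Over all 11 distinct strong peaks near tRNA genes the median was 34.7%, against 31.7% for all peaks of that list and 58.5% for the tRNA genes themselves.

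Candidate peaks were called by the authors for the replicates one by one (23253 for replicate 1 and 30000 for replicate 2 on dm6) and for their pooled reads (27219). A filter on the irreproducible discovery rate (IDR), which asks how alike the replicates rank their candidates, left 4117 IDR peaks. By the authors' own description, the unfiltered lists contain background too. The round length of the list of replicate 2 may mark a cap. Each peak has a signal value, the authors' enrichment for that peak, with no absolute scale, and the IDR list ends at 99.3. The number of reads is unknown. Intervals below are 95% Wilson intervals over genes. They cover counting error only, and genes of a cluster can share a peak.

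Strong CG10654-GFP peaks were rare at tRNA genes. An IDR summit lay within 500 bp of the 5′ end of 13 of the 295 tRNA genes, or 4.41% (2.59 to 7.39), against 14.8% of all annotated genes and 17.8% of the 13945 protein-coding genes. Among other genes of short non-coding RNAs, the share was 12 of 269 small nucleolar RNA (snoRNA) genes, or 4.46%, 7 of 260 microRNA genes, or 2.69%, and 4 of 32 small nuclear RNA genes, or 12.5% (4.97 to 28.1). The share of the tRNA genes was also lower than that of all genes when summits within 250 bp were counted (2.37% against 11.5%) or within 1000 bp (8.47% against 18.2%).

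Weaker candidates gave another picture. A summit of the pooled list lay within 500 bp of the 5′ end of 147 tRNA genes, or 49.8% (44.2 to 55.5), against 43.2% of all genes, 47.9% of protein-coding genes, 32.3% of snoRNA genes and 23.5% of microRNA genes. The value for protein-coding genes is inside the interval of the tRNA genes. Of these 147 genes, 134 had a pooled candidate and no IDR summit, which is 45.4% of the tRNA genes against 28.4% of all genes. None of the 5 pseudogenes had a pooled summit, and 2 of them had one in replicate 2.

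The replicates did not place tRNA genes alike. Replicate 1 had a candidate at 95 tRNA genes, or 32.2% (27.1 to 37.7), below the 38.5% of all genes. Replicate 2 had one at 176, or 59.7% (54.0 to 65.1), above the 46.3% of all genes. With only as many of the strongest candidates of replicate 2 as replicate 1 has, the shares were 54.2% of tRNA genes and 41.8% of all genes, so the order was the same at equal list length. A candidate in both replicates was found at 75 tRNA genes, or 25.4%, against 32.3% of all genes. A candidate in replicate 2 and none in replicate 1 was found at 34.2% of tRNA genes (29.1 to 39.8), against 14.0% of all genes, and the snoRNA genes had 30.9%. Against all genes, the share of tRNA genes was thus higher in replicate 2 and lower in replicate 1. What differs between the replicates was not tested.

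**Figure D1:**
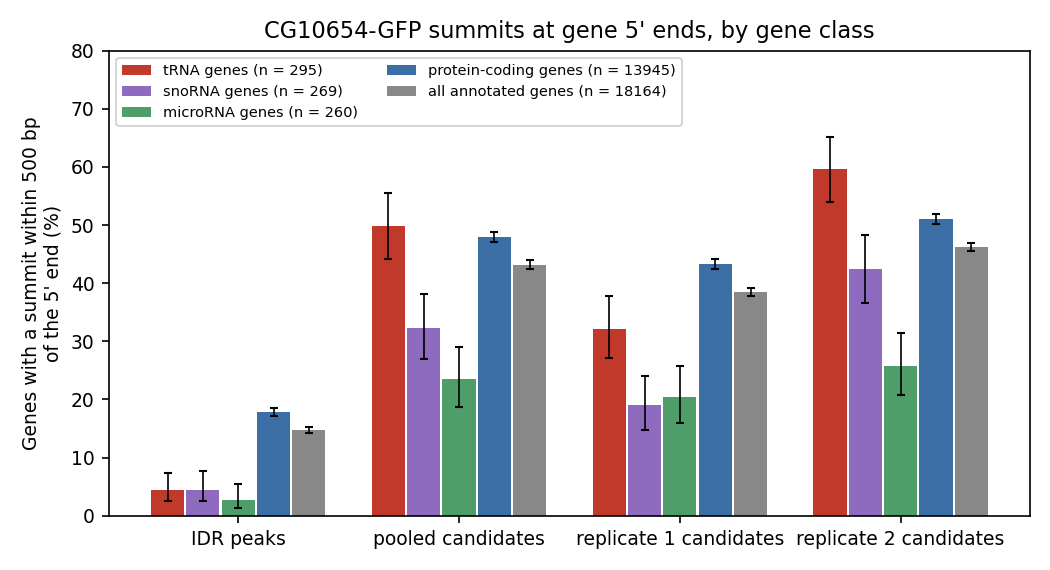
Share of genes (percent, vertical axis) with a CG10654-GFP summit within 500 bp of the 5′ end in each deposited list, for 5 gene classes; bars are shares and error bars 95% Wilson intervals. The tRNA genes stand at 4.41% for IDR peaks, below all genes at 14.8%, and at 59.7% for replicate 2, above all genes at 46.3%.

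Every tRNA gene can be accounted for by its best list. There were 13 genes with an IDR summit, 134 with a pooled candidate only, 56 with a candidate in a replicate list only and 92 with none. Of the 56, 50 had it in replicate 2 alone, 5 in replicate 1 alone and 1 in both. Among the genes without an IDR summit, 62 had a candidate in both replicates.

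The 13 tRNA genes shared 11 distinct IDR peaks, which is 0.267% of the IDR list. The median signal of these peaks was 174.5, near the median of 163.6 of the whole list, and their signals ran from 100.96 to 538. Signals in replicate 1 ran from 65.9 to 353.8 over 10 matched peaks and in replicate 2 from 34.0 to 183.2 over 11, a match being a summit within 100 bp. No summit was inside a tRNA gene. At the rate of the whole arms (0.0308 IDR summits per kb) the 22.4 kb of tRNA genes would hold 0.689 summits, so a count of 0 is not informative at this list length. The peak interval, which is wider than the summit, overlapped a tRNA gene for 3 of the 11 peaks.

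Most of these peaks were also close to a protein-coding promoter. A protein-coding transcription start site (TSS) lay within 500 bp of 9 of the 11 summits. It lay nearer than the tRNA 5′ end for 4 of them, which belong to 5 of the 13 genes. For the other 8 genes no protein-coding TSS was nearer, and this count was 13 without replicate 1 and 4 without replicate 2, when the strongest candidates of the remaining replicate took the place of the IDR list. The 11 peaks are described below in order of signal.

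The strongest was at tRNA:Tyr-GTA-1-8, a tyrosine tRNA gene with an intron, which lies in introns of the genes CG8036 and p (the eye-colour gene pink). Its peak (3R:8669234-8669514) had a signal of 538, with 353.8 in replicate 1 and 183.2 in replicate 2. It ranked 182 of 4117, with its summit 216 bp upstream of the tRNA gene and 228 bp from the TSS of CG8036. The summit thus lay about equally far from both start sites, and the peak was among the strongest in each replicate.

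The peak at tRNA:His-GTG-1-3 (2R:12335168-12335280) had a signal of 240.3, with 154.8 in replicate 1 and 85.2 in replicate 2. Its summit lay 125 bp upstream of the tRNA gene and 125 bp from the TSS of CG8490, so neither start was nearer. The gene is 1 of 5 histidine genes in a cluster, and it alone of the 5 had an IDR summit.

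At 2 genes the summit lay closer to a protein-coding promoter. The peak at tRNA:Phe-GAA-1-2 (X:6744231-6744378) had a signal of 239.6, with 173.3 in replicate 1 and 72.9 in replicate 2, and its summit was 103 bp from the TSS of RpL17, a protein of the large ribosomal subunit, against 202 bp from the tRNA 5′ end. The peak at tRNA:Trp-CCA-2-2 (2R:18639198-18639302) had a signal of 220.3, with 155.1 in replicate 1 and 63.5 in replicate 2, and its summit was 8 bp from the TSS of CG30122 and 295 bp from the tRNA gene. In both cases the protein-coding start was the nearer of the 2.

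At tRNA:Leu-TAA-2-1, the leucine gene printed above, the peak (3R:24112581-24112970) had a signal of 182.4, with 108.7 in replicate 1 and 70.6 in replicate 2. The summit was intergenic, 188 bp upstream of the tRNA gene and 387 bp from the TSS of CG13605, and the peak reached the first bases of the tRNA gene. This gene has a mature sequence of its own.

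The peak at tRNA:Val-CAC-2-5 (3R:19671678-19672067) had a signal of 174.5, with 101.8 in replicate 1 and 71.6 in replicate 2. Its summit lay 476 bp downstream of the tRNA 5′ end, in an intron of Naam, which encodes a nicotinamidase, and 423 bp from the TSS of Naam. It was the member closest to the 500 bp limit from inside. The nearest outside was tRNA:Gly-GCC-1-9, with an IDR summit of signal 220.3 at 534 bp.

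Only 2 of the 11 summits had no protein-coding TSS within 500 bp. The first was at tRNA:Gln-TTG-2-1 (X:3427605-3427994), which lies in an intron of CG12535: the signal was 149.9, with 87.1 in replicate 1 and 62.7 in replicate 2, the summit was 277 bp upstream of the tRNA gene, and the nearest protein-coding TSS was 8007 bp away. The second was at tRNA:Glu-TTC-1-5 (2R:19726976-19727365), in a cluster of glutamate and initiator methionine genes: the signal was 133.5, with 67.6 in replicate 1 and 69.5 in replicate 2, the summit was 360 bp downstream of the tRNA 5′ end, and the nearest protein-coding TSS was 13095 bp away. Both passed the limit of 99.3 and had a matched candidate in each replicate.

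The pair tRNA:Asp-GTC-1-5 and tRNA:Asp-GTC-1-4, which are transcribed away from each other, shared an intergenic peak (2L:8541660-8542049) of signal 125.2. Its summit lay 94 bp downstream of the first gene's 5′ end, just past that gene's last base. It was 232 bp upstream of the second gene and 292 bp from the TSS of Sema1a, which encodes a semaphorin of axon guidance. Replicate 2 had a matched candidate of 58.5. Replicate 1 had no summit within 100 bp, and a candidate of 77.2 within 500 bp of both genes. A second pooled candidate of 91.8, below the IDR limit, lay 92 bp from the TSS of Sema1a. The replicates thus placed the maximum differently here.

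The remaining 2 peaks were weaker. The peak at tRNA:Thr-AGT-1-4, in an intron of CG31279 (3R:16431639-16432028), had a signal of 121.9, with 83.7 in replicate 1 and 45.0 in replicate 2, and its summit lay 106 bp upstream of the tRNA gene and 363 bp from the TSS of CG31279. The peak beside tRNA:Gly-GCC-1-13 and tRNA:Trp-CCA-2-6, past both genes on the side of tud (2R:21182930-21183319) had a signal of 100.96, with 65.9 in replicate 1 and 34.0 in replicate 2. Its summit was 197 bp from the TSS of tud (tudor, needed for germ plasm), against 269 bp and 376 bp from the tRNA genes. With a rank of 4036 it was among the last of the list.

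**Figure D2:**
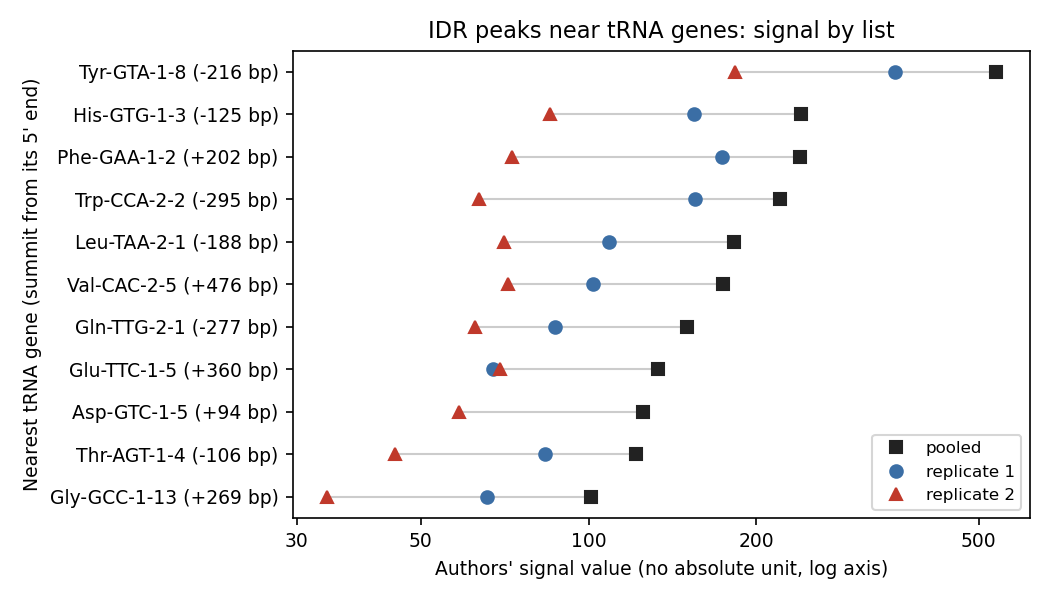
The authors' signal value (horizontal, log axis, no absolute unit) of the 11 IDR peaks near tRNA genes, by nearest tRNA gene and with the distance of the summit from its 5′ end; squares are the pooled list, circles replicate 1 and triangles replicate 2. The peak at Tyr-GTA-1-8 leads in each list, with 538, 353.8 and 183.2, and the peak at Asp-GTC-1-5 has no circle, since replicate 1 had no summit within 100 bp.

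The 5 tRNA genes with the highest pooled signal that did not pass had 78.6 to 88.8. The peak shared by the arginine genes tRNA:Arg-CCT-1-2 and tRNA:Arg-CCT-1-3 had 88.8, with 36.8 in replicate 1 and 46.6 in replicate 2. The peak at tRNA:Ile-AAT-1-9 had 87.5, with 27.6 in replicate 2 and none in replicate 1. The peaks at the proline genes tRNA:Pro-CGG-2-3 and tRNA:Pro-AGG-1-2 had 85.1 (45.0 in replicate 1 and 40.3 in replicate 2) and 78.6 (39.5 and 33.9 in that order). All 4 summits were intergenic, and only that at tRNA:Pro-CGG-2-3 had a protein-coding TSS within 500 bp, at 353 bp.

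The nearness of a protein-coding TSS went with the share of tRNA genes that had a peak. Of the 33 tRNA genes whose 5′ end lay within 500 bp of a protein-coding TSS, 8 had an IDR summit, or 24.2% (12.8 to 41.0). The share was 3 of 47 genes at 500 to 1000 bp, or 6.38%, 0 of 102 genes at 1000 to 5000 bp, with an upper limit of 3.63%, and 2 of 113 genes beyond 5000 bp, or 1.77%. Over the arms as a whole, 2.96% of all bases lay within 500 bp of an IDR summit, and in the same 4 distance classes 12.3%, 3.62%, 2.04% and 1.18% of the bases did. Beyond 1000 bp of any protein-coding TSS, 2 of 215 tRNA genes had an IDR summit, or 0.930%, against 1.54% of the bases.

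The share with a pooled candidate was also lower at greater distance, and at each distance it was above that of the bases. Pooled summits were found at 69.7%, 63.8%, 52.0% and 36.3% of the tRNA genes in those 4 classes, against 40.2%, 22.1%, 17.6% and 11.9% of the bases, and 18.0% of all bases of the arms. Beyond 1000 bp of a protein-coding TSS, 94 of 215 tRNA genes had a pooled candidate, or 43.7%, against 14.3% of the bases. Both replicates were above the bases in each class: at 1000 to 5000 bp replicate 1 had a candidate at 31.4% of the tRNA genes against 15.1% of the bases, and replicate 2 at 63.7% against 19.6%. Beyond 5000 bp the shares were 25.7% against 10.8% in replicate 1 and 47.8% against 11.8% in replicate 2. The shares of tRNA genes were thus above those of the bases in each replicate, while only in replicate 2 were they above those of all genes. The bases, here and in the rates per kb of the arms, are all those of the arms. Repeated stretches, where reads may not be placed, were not left out, and how many bases they cover was not measured.

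**Figure D3:**
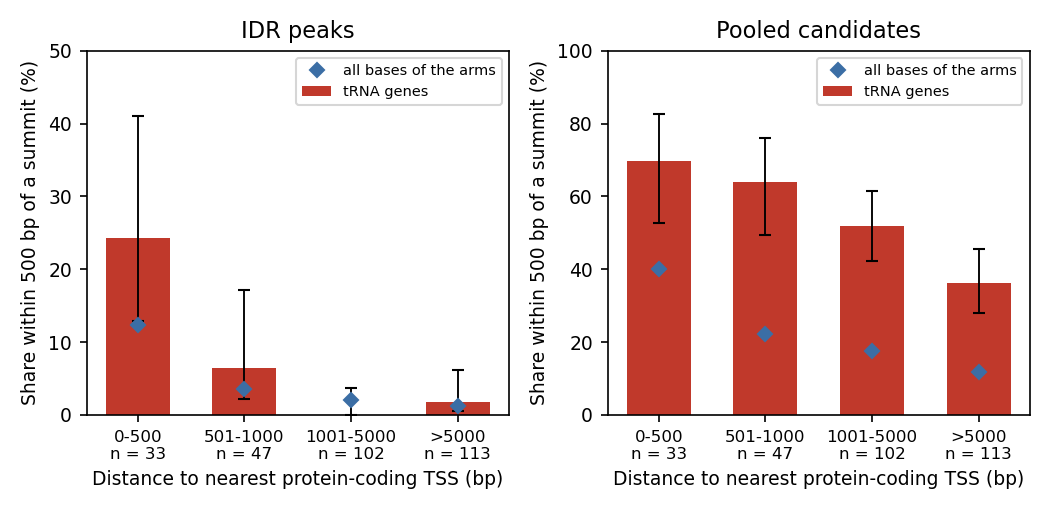
Share (percent) of tRNA genes with a summit within 500 bp of the 5′ end, by distance of that end from the nearest protein-coding TSS, for IDR peaks and for pooled candidates (the vertical scales differ); error bars are 95% Wilson intervals and diamonds are the share of all bases in the same distance class. For IDR peaks the bar is 24.2% within 500 bp, above its diamond at 12.3%, and no more than 6.38% farther away, and for pooled candidates each bar is above its diamond, 36.3% against 11.9% beyond 5000 bp.

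Where the candidate summits lay relative to the tRNA gene was different from their place at protein-coding genes. The 121 distinct pooled peaks near tRNA genes had 26 summits inside a tRNA gene, which is 1.16 summits per kb of tRNA gene against 0.473 in the 500 bp around and 0.203 over the arms. At the rate of the arms, 4.55 would fall in the genes. In replicate 1 the value was 0.491 per kb, from 11 summits, against 0.319 in the 500 bp around and 0.174 over the arms. In replicate 2 it was 1.12, from 25 summits, against 0.632 and 0.224. The gap between the genes and their surroundings was thus smaller in replicate 1, where it rests on few summits. In the first 100 bp from the 5′ end, about the length of a tRNA gene, there were 10.5 pooled summits per 100 tRNA genes. Protein-coding genes had 5.55 there, and their maximum was 13.6 in the 100 bp upstream of the start. Clustered tRNA genes can count the same summit more than once in these bins.

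The summits inside tRNA genes were weak. Their pooled signals ran from 26.8 to 64.9, with a median of 38.5. Of the 26, 9 were matched in both replicates, or 34.6%, 10 in replicate 2 only, 2 in replicate 1 only and 5 in neither, while 29.5% of all pooled candidates below the IDR limit were matched in both. The strongest of them, at 64.9, lay in the cluster of glutamate genes, at tRNA:Glu-CTC-2-1, and had 33.1 in replicate 1 and 31.9 in replicate 2.

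**Figure D4:**
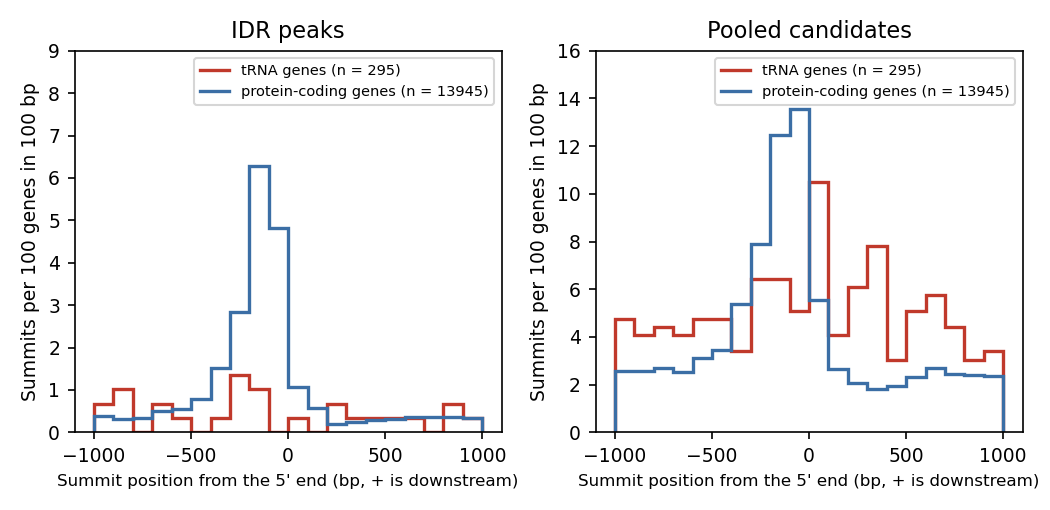
Summits per 100 genes in bins of 100 bp from 1000 bp upstream to 1000 bp downstream of the 5′ end, for tRNA genes and protein-coding genes, in the IDR list and in the pooled list. Protein-coding genes have their maximum upstream of the start (13.6 in the pooled list), and tRNA genes have theirs, 10.5, in the 100 bp from the 5′ end, which only the pooled list shows.

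Over all 121 pooled peaks near tRNA genes the signal was ordinary. The median was 38.3, against 40.3 for the pooled list. Of the 121, 11 reached the IDR list, or 9.09%, against 15.1% of all pooled candidates, and 39 were matched in both replicates, or 32.2%, against 39.6% of the whole list. Among the 110 below the IDR limit, 29 had a match in each replicate, or 26.4%, against 29.5% of all pooled candidates below it.

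Repeated sequence limits how well reads can be placed at these genes, and it was measured on the genome. Within 500 bp of the 5′ end, a median of 96.1% of the 50-base words occur once in the genome, with a range of 28.7% to 100% over the genes. Within the tRNA genes alone the median was 61.6%. The medians of the window were 96.5% for genes with an IDR summit, 95.1% for those with a pooled candidate only and 96.3% for those without a pooled candidate, so the medians lay within a narrow range. The medians do not show the few genes of low uniqueness. Only 5 genes had a window under 50%, and none of these had a summit in any list. Whether reads that could not be placed led to this was not tested.

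The promoter sequence of tRNA genes was searched at the summits. The B box was written as GTTCGANTC, and, chosen after its count was seen, as the wider GTTCNANNC, which includes the first. Both were searched on both strands within 50 bp of each summit, along with an A box pattern. The wider B box is in 274 of the 295 tRNA genes (92.9%) on the gene's strand after splicing, the narrower in 114 (38.6%) and the A box in 258 (87.5%).

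At the 11 IDR peaks near tRNA genes, the narrower B box and the A box matched in 0 windows and the wider B box in 2. Over all 4117 IDR peaks the narrower form matched in 11, none of which was near a tRNA gene, and the wider in 136, or 3.30%. Of the 110 weaker candidates near tRNA genes, 27 held the wider B box, or 24.5%, and 28 the A box, or 25.5%, against 3.06% and 2.42% of all 23102 weaker candidates. Of the 110 summits, 26 are inside a tRNA gene, where the boxes themselves lie. The sequence CGATA, part of the element known from insulator and core promoter sites as TATCGATA, was in 1 of the 11 windows and in 16.7% of all IDR windows. With only 11 windows, a count of 1 cannot be told from that share.

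By isotype, IDR summits were at 2 of 14 aspartate and 2 of 8 tryptophan genes and at 1 gene each for glutamine, glutamate, glycine, histidine, leucine, phenylalanine, threonine, tyrosine and valine. The other 11 isotypes had none, among them all 26 arginine, 20 serine and 19 lysine genes. Pooled candidates were at 7 of 8 phenylalanine, 12 of 17 alanine and 7 of 10 tyrosine genes. At the other end were 1 of 6 elongator methionine, 3 of 10 asparagine, 2 of 6 initiator methionine and 7 of 21 glutamate genes, and the only selenocysteine gene had none. With so few genes in most isotypes, and with clusters of like genes under the same peaks, no test was made between isotypes.

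**Figure D5:**
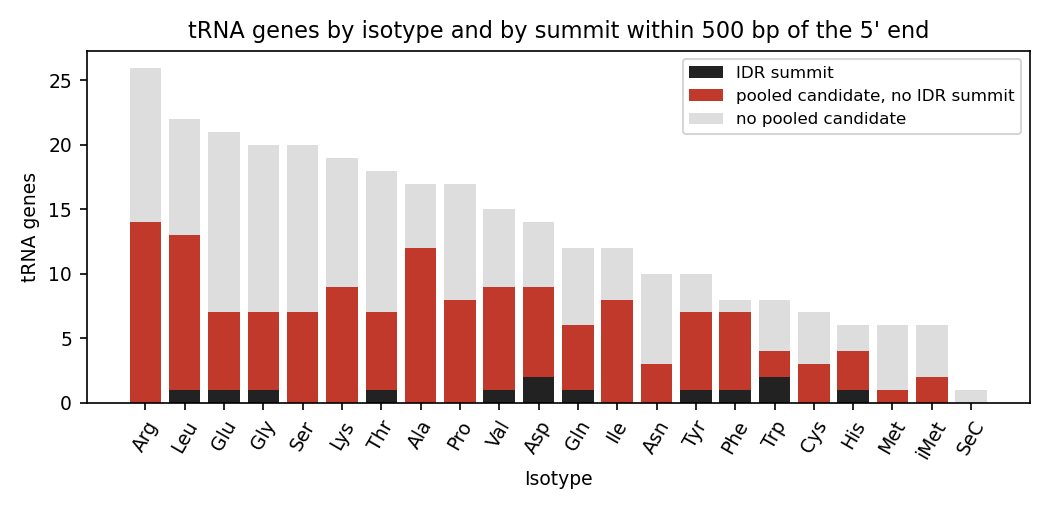
Number of tRNA genes (vertical) of each isotype, split by the best list with a summit within 500 bp of the 5′ end: IDR, pooled candidate without an IDR summit, or no pooled candidate. IDR summits are at no more than 2 genes of an isotype, and pooled candidates are at 7 of 8 phenylalanine genes, 1 of 6 methionine genes and not at the only selenocysteine gene.

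Genes were joined into a cluster where neighbours lay within 5000 bp, which gave 146 groups: 77 single genes, 58 groups of 2 to 4 genes and 11 groups of 5 or more. IDR summits were at 5 of the 77 single genes (6.49%), at 6 of the 140 genes in small groups (4.29%) and at 2 of the 78 genes in large groups (2.56%). These IDR counts are too small to put the kinds of group in order, and no intervals were computed for them. Pooled candidates were at 32.5%, 54.3% and 59.0% of the genes of single, small and large groups. A gene in a cluster has neighbours whose peaks fall within its own 500 bp, so these shares are not independent of the spacing.

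The large clusters differed among themselves. The 11 genes at 3R:17617761-17631750 (alanine, proline, threonine and valine) had no IDR summit and 8 genes with a pooled candidate, 6 in replicate 1 and 8 in replicate 2. The 11 genes at 2R:6161535-6171759 (lysine, arginine, asparagine and isoleucine) had none and 7, with 4 in replicate 1 and 8 in replicate 2. All 5 glutamine genes at 2L:2009155-2013250 had a candidate in the pooled list and in each replicate, the highest at 52.9. The 6 leucine genes at 3L:8060214-8068290 all had a candidate in the pooled list and in replicate 2, and none in replicate 1. The 6 glutamate genes at 3L:1397695-1401852 and the 7 arginine and serine genes at X:14014814-14017284 had no candidate in the pooled list or in replicate 1. In replicate 2, 2 genes of each cluster had one. The windows of these clusters were the least unique of the large clusters, with medians of 51.7% and 77.2%. Whether this bears on the counts was not tested.

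Among the arms, pooled candidates were at 59.0% of the 100 tRNA genes on 2R, 56.1% of the 41 on 2L, 50.6% of the 79 on 3R, 40.8% of the 49 on 3L and 19.2% of the 26 on X. Over all genes the same 5 arms ran from 41.0% on 2L to 44.2% on X and 44.5% on 3R (arm 4, with no tRNA gene, had 55.1%). On X, replicate 1 had a candidate at 15.4% of the tRNA genes and replicate 2 at 26.9%, against 38.7% and 46.1% of all genes of that arm. An IDR summit was at 2 of the 26, against 12.4% of all genes of X. Neighbouring groups of 7, 2, 1, 3 and 1 tRNA genes, all between X:14014814 and X:14117810, had no pooled candidate. The 5 tRNA genes of X with a pooled candidate lay outside this stretch, so the low share is not spread evenly along the arm. On 3L, replicate 1 had a candidate at 14.3% of the tRNA genes and replicate 2 at 57.1%, against 39.6% and 48.6% of all genes there. None of the 49 had an IDR summit, against 15.7% of all genes of 3L.

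Among 110 other genes that RNA polymerase III transcribes, 100 are the 5S ribosomal RNA genes and pseudogenes of a tandem array, and none of these had a pooled candidate. Words that occur once in the genome were counted only around tRNA genes. How well reads can be placed in this array is thus not known, and the absence of candidates there cannot be read as absence of binding. Of the other 10, 6 had a pooled candidate and 1 an IDR summit, against 43.2% and 14.8% of all genes. The IDR summit was at snRNA:7SKa, which encodes the 7SK RNA that holds back the elongation factor P-TEFb, with a peak at 3R:7474539-7474928 of signal 121.1. The U6 genes snRNA:U6:96Ab and snRNA:U6:96Ac, which encode an RNA of the spliceosome, had a candidate of 96.5, just under the IDR limit of 99.3, and snRNA:U6:96Aa had 27.2. RNaseMRP:RNA had 41.0 and RNaseP:RNA 38.8, the RNA parts of enzymes that process ribosomal RNA and tRNA precursors.

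The protein-coding genes of the same pathway had peaks more often. Of 27 genes for RNA polymerase III transcription, 10 had an IDR summit within 500 bp of an annotated TSS, against 16.3% of all genes. All genes include non-coding ones. Protein-coding genes alone had 17.8% at the gene's 5′ end, and their share at any annotated TSS was not computed. The highest signals were at Bdp1 and Brf, which encode subunits of TFIIIB, with 664.5 (460.4 in replicate 1 and 203.5 in replicate 2) and 486.8 (350.9 and 133.6). Polr2H and Polr2F, subunits that all of the nuclear RNA polymerases share, had 426.4 and 327.1, and Polr3E, a subunit of RNA polymerase III, had 339.0. The peaks at Brf and Polr2H were nearer to the TSS of a neighbour (sds22 and CG11247). Lower signals, from 103.7 to 168.5, were at l(2)37Cd, Polr1D, Polr3F and La, which binds the 3′ ends of new polymerase III transcripts. The 17 genes without an IDR summit included Trf, Tbp, the repressor Maf1 and the largest subunits (Polr3A and Polr3B). These genes were picked out for their roles after the values were seen.

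Of 29 genes for tRNA processing and modification, 11 had an IDR summit, or 37.9%, with the same background of 16.3% of all genes, non-coding ones included. Trmt6 and Trmt61, the subunits of a tRNA adenosine methyltransferase, had signals of 516.5 (350.8 in replicate 1 and 171.8 in replicate 2) and 228.3 (151.4 and 75.2), and Elp6 and Elp5 of the Elongator complex, which modifies the wobble uridine, had 434.5 (338.4 and 113.8) and 427.5 (245.8 and 178.0). Rpp14a, a subunit of RNase P, had 209.6, and Trm1, a tRNA guanosine methyltransferase, had 206.6 with no match in replicate 2. The peaks at Elp6, Trmt61, Rpp14a and Trm1 had the TSS of a neighbour at least as near (Dic1, RpL34a, CG7950 and CG5446). These lists were chosen with earlier results of the same data known, and no test was made on them.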

How the data were processed

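Anti-GFP ChIP-seq of 2 biological replicates was deposited by the authors as narrowPeak lists. Fields used were the position, the summit (field 10) and the signal value (field 7), an enrichment per peak deposited by the authors, with no stated unit. Peaks were called per replicate and on pooled reads against a control, per the file headers. No aligner or peak caller is given in the sources used here. The dm3 lists were not analysed.

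A summit within 500 bp of a gene's 5′ end was assigned to it with pandas 2.3.3 and numpy 2.4.6 in Python 3.11.15, after a check on simulated data. Peaks were matched at 100 bp and genes linked into clusters at 5000 bp. Transposable element entries were left out. MicroRNA genes were taken by symbol. Shares have 95% Wilson intervals, and no test was made, since there is 1 group and the control library was not analysed. Genes named were the tRNA genes with an IDR summit, the 5 of highest remaining signal, the nearest to the 500 bp limit on each side, and up to 6 of each gene list by signal, 1 of which is not reported here. Members and lists were chosen with earlier results of these data known. The wider B box, the set of annotated tRNA genes without pseudogenes and the shortened list of replicate 2 were chosen after seeing the data.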

Additional observations from a re-analysis of the deposited data

How the results depend on the processing

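Of 52 alternative settings over the counts of tRNA genes, peaks and clusters, the 2 gene lists and the background, 36 stayed within 1.5 times the value reported and 16 did not. The 13 genes with an IDR summit were 7 at 250 bp, 25 at 1000 bp and 6 among the stronger IDR peaks (signal above the list's median), and 13 to 18 without a replicate. The 147 genes with a pooled summit were 87 at 250 bp and 95 to 176 without a replicate. The 75 genes with a candidate in both replicates were 38 at 250 bp and 140 at 1000 bp. The 8 genes with no protein-coding TSS nearer were 13 at 1000 bp, 3 among the stronger peaks, 2 when no protein-coding TSS was allowed within 500 bp, and 4 to 13 without a replicate. The 11 distinct peaks were 6 at 250 bp, 18 at 1000 bp and 6 among the stronger peaks, and the 11 clusters with an IDR summit were 6 among the stronger peaks. In the 5 IDR settings for which the share of all genes was computed, that of tRNA genes was lower: at 250 bp and 1000 bp (values in the report), among the stronger peaks (2.03% against 8.29%), without replicate 1 (6.10% against 14.1%) and without replicate 2 (4.41% against 15.1%). The excess over all genes in the pooled list did not hold in replicate 1. No paired analysis was possible because there is 1 group. The number of reads behind each peak is unknown, which limits how the candidates below the IDR limit can be read.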
